A study of Mus musculus with 4 samples.

Results

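The miR-148 and miR-152 family is a group of mature mouse microRNAs (miRNAs) with one seed in common, made from 3 hairpins. Its members were taken by name, as every row whose name without the species and arm marks is miR-148a, miR-148b or miR-152. The rule uses no measured value, though earlier results of these data were known when it was set. This gave 4 of the 590 miRNAs listed in any library: the guide strands mmu-miR-148a, mmu-miR-148b and mmu-miR-152 (below without the species mark), and miR-148a*, the passenger strand of the miR-148a hairpin. The source was small RNA of synovial fibroblasts, cells of the joint lining kept in culture, and the question was which miRNAs mark arthritic joints. The WT group holds 2 wild-type littermate cultures and the TghuTNF group 2 cultures from mice that carry a human TNF transgene and develop arthritis. All mice were 8 weeks old on a mixed CBA/J and C57BL/6/J background. Both groups were grown from digested hind joints to passage 4, so the RNA is that of cultured cells and not of the joint itself. Per the labels, flow cytometry found 80 to 90% or more of the cultured cells positive for CD90.2, a fibroblast surface marker, and under 1% positive for the myeloid marker Mac1. The series design calls the 2 libraries of each genotype biological replicates, and the tests below measure only the spread between such cultures.

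A miRNA guides an Argonaute protein to messenger RNAs that pair with its seed, the bases near its 5′ end, and lowers their stability or translation. The family is best known for repressing Dnmt1, the methyltransferase that copies DNA methylation onto new strands, and is often counted among the miRNAs that act on the epigenetic machinery. In T cells of lupus, raised miR-148a has been linked to loss of DNA methylation. Dnmt1 itself was not measured in these libraries, which hold small RNA alone.

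The mature sequences are given first because they show both what the family shares and how far its members can be told apart by reads. RefSeq (GRCm38.p6) held all 3 guide strands and the passenger strand miR-148a*, and the seed, bases 2 to 8, is in capitals:
miR-148a: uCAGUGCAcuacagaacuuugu
miR-148b: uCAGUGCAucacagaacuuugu
miR-152: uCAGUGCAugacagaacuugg
miR-148a*: aAAGUUCUgagacacuccgacu
The guides were identical over their first 8 bases. Of the 1679 mature names in the RefSeq table, 3 had this seed at bases 2 to 8, and these were the guides of the family. Counted from 1 at the 5′ end, with the base of the first-named miRNA first, miR-148a and miR-148b differed by C9U and U10C over 22 bases. miR-148b and miR-152 differed by C10G and U20G over 21 bases. The most distant pair, miR-148a and miR-152, differed by C9U, U10G and U20G. The passenger strand miR-148a* has another seed and therefore other predicted targets.

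The hairpins are shown because they place both arms of each precursor, in capitals, with the guide as the second arm in each:
Mir148a: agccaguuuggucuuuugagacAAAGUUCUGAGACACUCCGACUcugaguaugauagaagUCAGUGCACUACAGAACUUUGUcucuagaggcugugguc
Mir148b: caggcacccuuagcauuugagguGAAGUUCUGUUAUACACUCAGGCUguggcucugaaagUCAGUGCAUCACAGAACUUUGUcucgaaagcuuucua
Mir152: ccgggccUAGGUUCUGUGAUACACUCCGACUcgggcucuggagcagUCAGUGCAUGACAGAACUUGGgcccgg
In GRCm38, Mir148a lies at chr6:51269812-51269910 on the minus strand and outside annotated genes, with Nfe2l3 as the nearest protein-coding gene, 162760 bases away. Mir148b lies at chr15:103285125-103285221 on the plus strand, in an intron of all 4 transcripts of Copz1 that span it. Mir152 lies at chr11:96850393-96850465 on the plus strand, in an intron of all 3 transcripts of Copz2 that span it. Copz1 and Copz2 encode paralogous zeta subunits of the COPI coat of Golgi vesicles, and both run in the direction of their hairpin. The first arms of Mir148b and Mir152 had no row in any library and are not analysed here.

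Matches to the seed were looked up in the DNA methyltransferase messages, because Dnmt1 is the target for which the family is known. The letters searched were TGCACTG, which pair with bases 2 to 8 of the guides, on the sense strand of 1 GENCODE M21 transcript per gene, the one with the longest coding part. The stretches that hold a match, with the match in capitals, were:
Dnmt1: agagccccacgTGCACTGatgtttttaac
Dnmt3a: acatcctgtggTGCACTGaaatggaaagg
Dnmt3b: acgttttgtggTGCACTGagctcgaaagg
The match of Dnmt1 starts at base 23 of its 3′ UTR of 312 bases, and the stretch lies at chr9:20907481-20907509 on the minus strand. Those of Dnmt3a and Dnmt3b, which set new methylation, lie in the coding part, at coding bases 2569 and 2425, and each stretch spans an exon junction. All 3 matches are followed by an A, which makes the longer form TGCACTGA. Over all genes, TGCACTG was in 11.5% of 20581 3′ UTRs and in 14.6% of 21877 coding parts, and TGCACTGA was in 3.27% of the 3′ UTRs. The share of coding parts with TGCACTGA was not counted, so the longer form in Dnmt3a and Dnmt3b has no background here. These matches are descriptions of the letters and not measured sites.

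Libraries held 16680860 to 27362819 matches of reads to miRNAs, and a count of 0 would allow up to 3 matches, 0.110 to 0.180 CPM (counts per 1000000 matches). Replicates correlated across miRNAs with r = 0.995 in WT and 0.990 in TghuTNF. TghuTNF replicate 2 stood apart in its mismatches, with 11.67% of its matches at 2 mismatches against 8.21% to 8.73% in the other libraries. The cause of this difference was not tested. The fibroblast and mesenchymal miRNAs of a list of 7, led by miR-21 and miR-143, were all measured and summed to 281300 to 308850 CPM per library, here without further scaling. Of these 7, edgeR called miR-22 higher in TghuTNF (log2 fold change 1.02, adjusted p = 0.00387) and miR-214 lower (-0.926, adjusted p = 0.0369). The other 5 did not pass. Of the markers of other cells, the 2 endothelial miRNAs, both arms of the miR-126 hairpin, summed to 110.4 and 124.8 CPM in WT against 65.4 and 69.4 in TghuTNF, the 5 blood cell miRNAs to 55.8 and 74.0 against 100.5 and 106.6, the 5 muscle miRNAs to 2389.9 and 3086 against 1749.7 and 2074, and the 7 epithelial miRNAs to 66.7 and 72.7 against 30.1 and 37.1. The 4 miRNAs of liver and gut summed to 514 and 518 against 487 and 537 CPM, and the 5 neural miRNAs to 72.5 and 82.0 against 88.4 and 101.7 CPM. The epithelial sum was mostly miR-203 (59.0 and 62.4 against 25.2 and 19.8 scaled CPM, edgeR adjusted p = 0.00254), while the other 3 tested members, miR-141, miR-200b and miR-200c, had positive log2 fold changes that did not pass. The liver and gut sum was mostly miR-192 and miR-194, which did not pass, while the scarce miR-122 and miR-215 rose (log2 fold changes 1.95 and 1.92, edgeR adjusted p = 0.00158 and 0.000822). By edgeR, 1 of 4 tested blood cell miRNAs and 2 of 4 neural ones were also called higher, 1 of 2 endothelial ones lower and 0 of 5 muscle ones. Each defining marker was listed in at least 1 library. The part of these cells in the family's values was not tested.

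The family was abundant in synovial fibroblasts, and nearly all of it was miR-148a and miR-152 in close to equal amounts. Together the 3 guides took 3.02% and 2.77% of all matches in WT and 2.10% and 2.52% in TghuTNF. Of perfect matches alone, they took 4.075% and 3.712% in WT and 2.811% and 3.365% in TghuTNF. miR-148a ranked 16th to 20th of the miRNAs in each library, miR-152 17th to 19th and miR-148b 40th to 43rd. Within the family, miR-148a made up 46.7% and 44.2% of guide matches in WT and 45.4% and 47.2% in TghuTNF. miR-152 made up 46.1% and 48.2% in WT and 45.8% and 44.95% in TghuTNF. miR-148b, the Copz1 intron member, was the minor guide at 7.17% and 7.52% in WT against 8.79% and 7.82% in TghuTNF. The exact 95% binomial interval of its highest share ran from 8.71% to 8.86%, and such intervals cover counting error only, since reads carry no molecular identifiers.

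**Figure D1:**
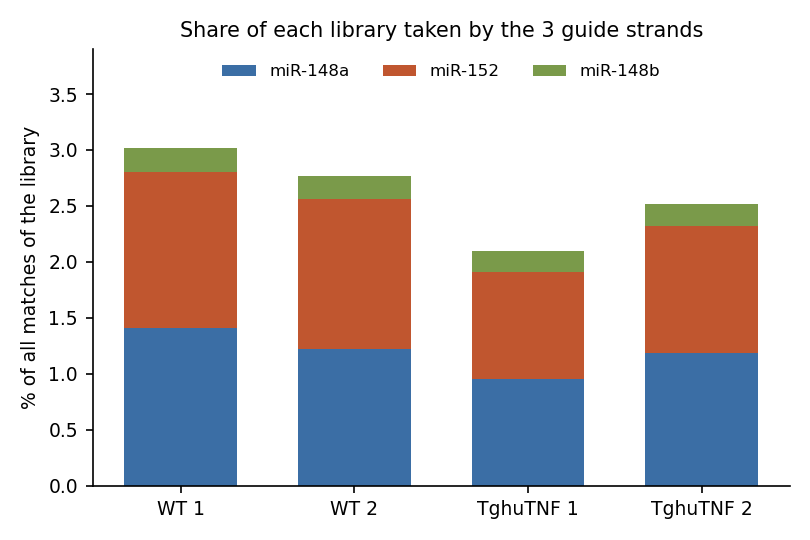
Stacked bars give the percent of all matches of each library (vertical axis, from 0) taken by miR-148a, miR-152 and miR-148b, for the 2 WT and 2 TghuTNF libraries. The totals were 3.02% and 2.77% in WT and 2.10% and 2.52% in TghuTNF, and miR-148b is the thin top layer in each bar.

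No member passed the test between genotypes, and every member had a lower mean in TghuTNF. Of the 4 rows, all passed the filter on low counts and 0 passed edgeR's quasi-likelihood test at an adjusted p of 0.05, against 13.3% of the 442 miRNAs tested (59, of which 21 were higher and 38, or 8.60% of those tested, lower). At an unadjusted p under 0.05 there was 1 by edgeR, miR-152, and 0 by DESeq2, which also called 0 after adjustment. Among the 57 miRNAs with a mean of at least 1000 CPM, 6 were called (10.5%), so the test also called abundant miRNAs. In bulk RNA, fewer cells of a type and less RNA per cell cannot be told apart. CPM below are scaled by TMM (trimmed mean of M values), an edgeR step that evens out composition between libraries.

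miR-152, the guide from the Copz2 intron, had the largest difference of the family. It stood at 14138 and 13026 CPM in WT and at 9507 and 11537 CPM in TghuTNF. Both TghuTNF libraries were below both WT libraries, with TghuTNF replicate 1 the lowest. The means were 13582 ± 787 CPM in WT and 10522 ± 1435 CPM in TghuTNF (SD, n = 2). The log2 fold change was -0.37 ± 0.16 (SE), with an edgeR adjusted p = 0.156 (unadjusted p = 0.0425). The 95% interval of the ratio of TghuTNF to WT ran from 0.606 to 0.990, so a fall to under 0.606 of the WT level lies outside it.

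miR-148a, a guide often tied to Dnmt1, stood close to miR-152 but varied more between cultures. It stood at 14328 and 11943 CPM in WT and at 9437.5 and 12123 CPM in TghuTNF. The genotypes overlapped, since TghuTNF replicate 2 was above WT replicate 2, while WT replicate 1 was the highest and TghuTNF replicate 1 the lowest. The means were 13135 ± 1686 CPM in WT and 10780 ± 1899 CPM in TghuTNF (SD, n = 2). The log2 fold change was -0.29 ± 0.17 (SE), with an edgeR adjusted p = 0.301. The 95% interval of the ratio of TghuTNF to WT was 0.628 to 1.07. Counting error was far smaller than this spread: in WT replicate 1 miR-148a took 1.411% of matches (exact 95% binomial interval 1.406% to 1.417%), against 1.225% (1.221% to 1.229%) in WT replicate 2.

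miR-148b, the minor guide, had the smallest difference. It stood at 2200.1 and 2030.3 CPM in WT and at 1825 and 2008 CPM in TghuTNF. The TghuTNF libraries were below the WT libraries, though TghuTNF replicate 2 was only just below WT replicate 2. The log2 fold change was -0.14 ± 0.16 (SE; edgeR adjusted p = 0.606), and the 95% interval of the ratio was 0.706 to 1.16. Genotypes thus did not overlap for 2 of the 4 members, miR-148b and miR-152, and did not overlap for 60.6% of all miRNAs tested.

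**Figure D2:**
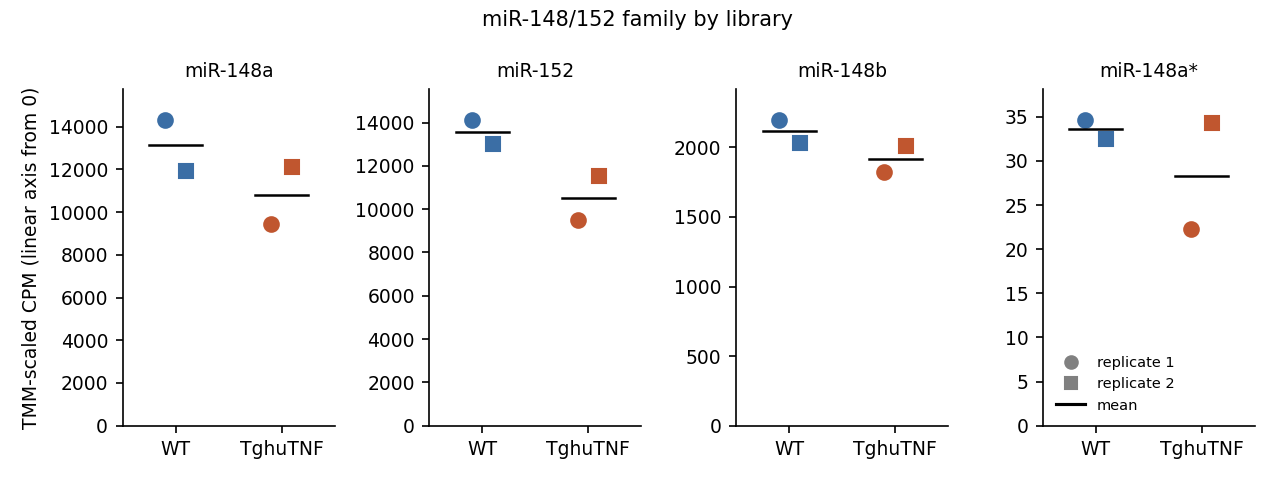
Each panel gives 1 member of the family, with TMM-scaled CPM on a linear axis from 0, a circle for replicate 1, a square for replicate 2 and a line for the mean of each genotype. TghuTNF replicate 1 is the lowest library for every member, and the circles and squares of the 2 genotypes overlap for miR-148a and miR-148a*.

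The passenger strand miR-148a* was scarce beside its guide in every library. It stood at 34.7 and 32.5 CPM in WT and at 22.3 and 34.3 CPM in TghuTNF, from 570 to 885 matches per library. TghuTNF replicate 1 was lower than the other libraries, which lay close together. The log2 fold change was -0.25 ± 0.27 (SE; edgeR adjusted p = 0.577), with an interval of the ratio from 0.561 to 1.26. As a share of the matches of both arms, miR-148a* made up 0.242% and 0.271% in WT and 0.236% and 0.282% in TghuTNF. The log2 ratio of the arms (with 0.5 added to each count) differed by 0.010 ± 0.257 (SE; limma adjusted p = 0.994), with a 95% interval from -0.605 to 0.626. Among 104 miRNA names with both arms tested, 0 passed limma's test (0.00%) and 5 had an unadjusted p under 0.05. Ordered from the lowest share of the minor arm, the miR-148a hairpin was the 20th of the 104.

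**Figure D3:**
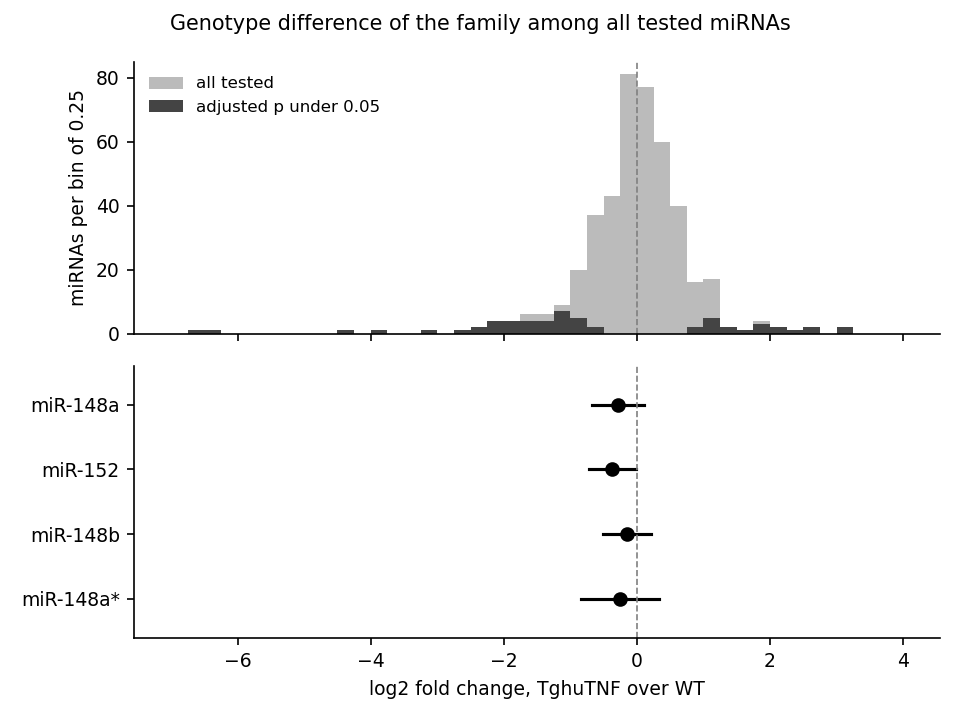
The upper panel is a histogram of log2 fold changes (TghuTNF over WT, bins of 0.25) of the 442 miRNAs tested, with the 59 called ones in dark. The lower panel gives the 4 family members on the same axis, with 95% intervals as bars: all 4 points lie left of 0, and the bars of miR-148a, miR-148b and miR-148a* cross 0.

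Set beside all miRNAs, the family's differences were not large. The median log2 fold change of the 442 miRNAs was 0.0056 and the median absolute value 0.402, more than that of any family member. Of all tested, 218 had a negative log2 fold change, as had all 4 family members. Of these, miR-148a and miR-148a* share a hairpin and are not independent. The 3 guides come from separate hairpins, and whether their levels vary independently was not tested. Of the 57 with at least 1000 CPM, 35 were negative, with a median of -0.049. The summed level of the 3 guides was 30666 and 26999 CPM in WT and 20769 and 25668 CPM in TghuTNF, with means of 28833 ± 2593 and 23218 ± 3464 (SD, n = 2), and was given no test.

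The balance between the members was compared within libraries, where it does not depend on scaling. The ratio of miR-148a to miR-152 was 1.01 and 0.917 in WT and 0.993 and 1.05 in TghuTNF, a difference in log2 ratio of 0.0835. The ratio of miR-152 to miR-148b was 6.43 and 6.42 in WT and 5.21 and 5.75 in TghuTNF. Here the TghuTNF libraries were both lower, by 0.231 on the log2 scale, and the WT cultures held nearly the same value. The ratio of miR-148a to miR-148b was 6.51 and 5.88 in WT against 5.17 and 6.04 in TghuTNF, where the genotypes overlapped. The exact two-sided permutation p was 0.333 for miR-152 over miR-148b and 0.667 for the other pairs (0.667 for all 3 pairs after Benjamini-Hochberg adjustment), and 0.333 is the smallest that 2 against 2 libraries allow.

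Because the guides are so alike, the deposited mismatch classes were used to ask how far reads of one could have been counted for another. Of the matches of miR-148a, 93.7% and 94.4% were perfect in WT, and 94.5% and 87.7% in TghuTNF. For miR-152 these shares were 94.1%, 94.8%, 94.7% and 89.3%, in the same order of libraries, and for miR-148b 92.9%, 93.5%, 93.8% and 85.5%. The guides thus rest mainly on perfect matches, and only TghuTNF replicate 2 was lower. A read that matches all of miR-148b has 2 mismatches to miR-148a and to miR-152. If it ends before the U20G difference, it has only 1 mismatch to miR-152. Suppose that all perfect reads of miR-148b had also been counted for miR-148a. The 2-mismatch matches of miR-148a would then be at least the 33598 perfect matches of miR-148b in WT replicate 1, but there were 4250. The 2-mismatch matches of miR-148a came to 8.71% to 12.6% of the perfect matches of miR-148b in 3 libraries and 43.4% in TghuTNF replicate 2, and those of miR-152 to 9.27% to 12.1% and 44.0%. With 1-mismatch matches added, those of miR-152 came to 29.4% to 40.9% in 3 libraries and 71.7% in TghuTNF replicate 2. In the other direction, the 2-mismatch matches of miR-148b came to at most 1.43% of the perfect matches of miR-148a or miR-152. With 1-mismatch matches added, they came to at most 2.82% of the perfect matches of miR-152. Between miR-148a and miR-152, with 3 differences over 21 bases, a perfect read of all 21 bases exceeds the 2 mismatches allowed for the other. A shorter read that ends before the U20G difference has only 2 mismatches to the other. Counting of such reads for both was not tested.

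TghuTNF replicate 2 held more mismatched reads for all 3 guides. Matches with 2 mismatches made up 6.15% of miR-148a there against 1.58% to 1.81% in the other libraries, 6.55% of miR-152 against 1.55% to 1.76%, and 7.32% of miR-148b against 1.43% to 1.76%. miR-148a* had fewer perfect matches everywhere, 67.6% to 70.5%. The log2 odds of a perfect match did not pass limma's test between genotypes for any member (adjusted p = 0.856 for the guides and 0.989 for miR-148a*). Neither did those of the other miRNAs with at least 100 matches on average (0 of 307, 0.00%, with 14 at an unadjusted p under 0.05). With perfect matches only, the log2 fold changes were -0.40 for miR-152, -0.32 for miR-148a, -0.19 for miR-148b and -0.23 for miR-148a*, and 0 passed edgeR's test (adjusted p = 0.137 to 0.655).

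**Figure D4:**
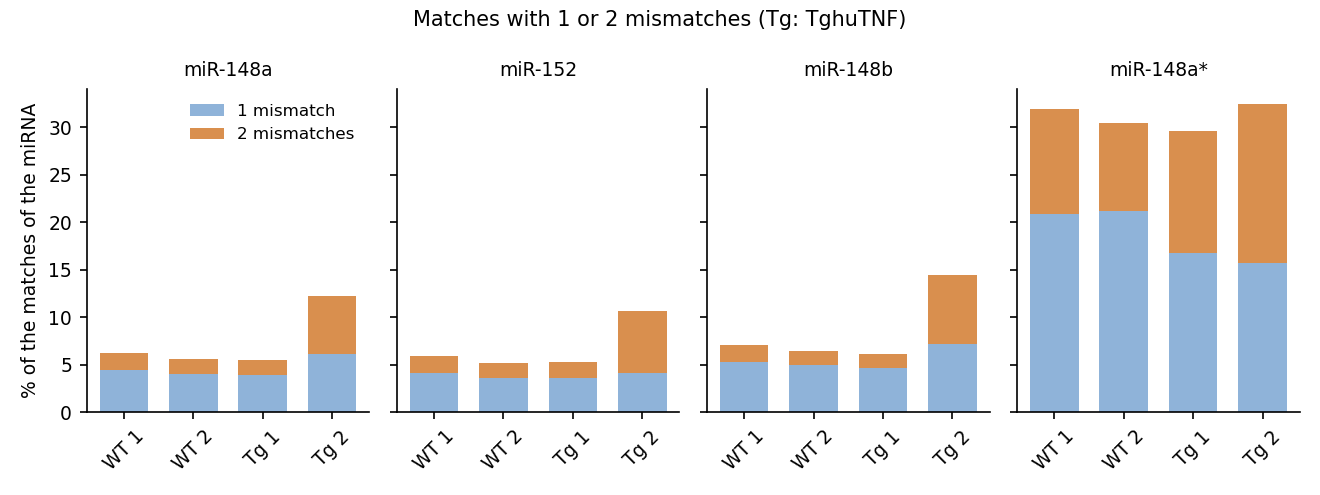
Bars give the percent of each member's matches (vertical axis, from 0) that had 1 or 2 mismatches, in WT replicates 1 and 2 and TghuTNF (Tg) replicates 1 and 2. For the 3 guides the 2-mismatch part is 6.15% to 7.32% in TghuTNF replicate 2 and at most 1.81% elsewhere, while miR-148a* has a large mismatched part in every library.

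The size of the differences depended on which libraries were used. The filter and the TMM scaling were redone for each set of libraries, so the values below include changes in scaling. Without TghuTNF replicate 2, the library with the most mismatches, the log2 fold changes were -0.54 for miR-152, -0.50 for miR-148a, -0.24 for miR-148b and -0.62 for miR-148a*. Without TghuTNF replicate 1 they were -0.31, -0.19, -0.15 and -0.047, in the same order. Leaving out WT replicate 1 gave -0.31, -0.15, -0.083 and -0.20, and leaving out WT replicate 2 gave -0.43, -0.41, -0.20 and -0.30. None of these fits called a member (edgeR adjusted p = 0.0927 to 0.921), and each leaves 1 library in a genotype, which is assumed to vary like the others.

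**Figure D5:**
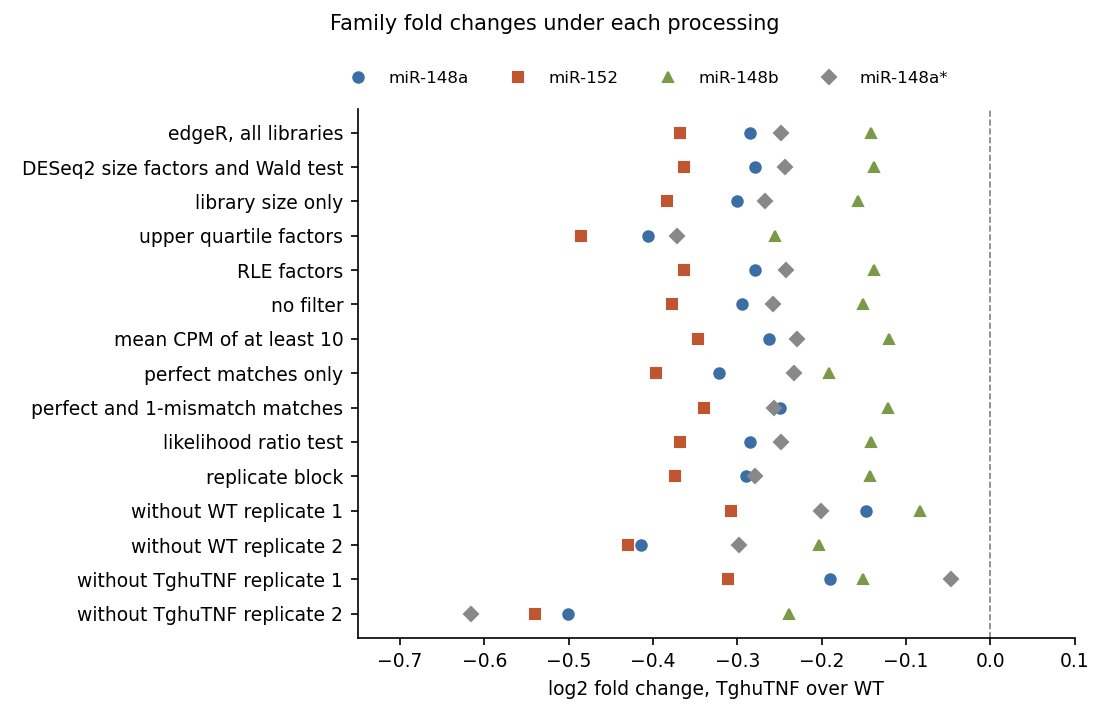
Log2 fold changes (TghuTNF over WT, horizontal axis) of the 4 members are shown for the fit with all libraries (top) and for 14 alternatives, each on a line of its own. All 56 values of the alternatives are below 0, from -0.616 to -0.047, and 0 of them reached an adjusted p under 0.05.

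Some miRNAs outside the family followed its profile closely. Likeness was the root mean square difference of log2 CPM, each centred on its mean over the 4 libraries, and smaller is closer. For miR-148a the nearest of the tested miRNAs were miR-190 (0.0567), the mesenchymal miRNA miR-199a-3p (0.0845) and miR-26a (0.0969). For miR-148b they were miR-192 (0.0152), miR-143 (0.0205) and miR-30e* (0.0365), and for miR-152 they were miR-1929 (0.0699), miR-26a (0.0721) and miR-466a-3p (0.0737). miR-148a and miR-152 were 0.072 apart, while miR-148b was 0.12 from miR-148a and 0.126 from miR-152. None of these 8 neighbours passed edgeR's test (adjusted p = 0.186 to 0.721), and miR-1929 stood at only 1.49 to 2.28 CPM per library. With 4 libraries these distances describe the profiles and do not test them.

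The seed letters of the family also occur 1 base earlier, at bases 1 to 7, in 7 other RefSeq miRNAs, which gives those another seed, AGUGCAA. Of these, miR-130a, miR-130b and miR-301a were tested. miR-130a stood at 429 and 501 CPM in WT and 386 and 440 CPM in TghuTNF (log2 fold change -0.17 ± 0.19 SE). miR-130b (0.30 ± 0.26) and miR-301a (0.14 ± 0.23) had positive values, and 0 of the 3 passed edgeR's test (adjusted p = 0.482 to 0.742). miR-1960, whose seed shares 6 bases with that of the family, stood at 0.36 to 0.73 CPM and did not pass either (edgeR adjusted p = 0.858).

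Beside the family, 12 other miRNAs known to repress Dnmt1, Dnmt3a or Dnmt3b were followed as a list, and all 12 were tested. Of these, 1 was called lower (8.60% of all tested miRNAs were), 0 were called higher and 11 did not pass, a share near the background, with 6 positive and 6 negative log2 fold changes and a median of 0.049 against 0.0056 over all miRNAs. The called one was miR-126-3p, an endothelial miRNA also known to target Dnmt1, at 111.7 and 94.8 CPM in WT and 61.3 and 57.9 CPM in TghuTNF (log2 fold change -0.79 ± 0.22 SE, edgeR adjusted p = 0.0352). Its call ended without WT replicate 1 or WT replicate 2 (edgeR adjusted p = 0.304 and 0.101). It makes up most of the endothelial sum given above, so that sum is no separate measurement of it. The abundant members did not pass: miR-21 (0.12 ± 0.14), miR-143 (-0.11 ± 0.14), miR-29a (-0.023 ± 0.16) and miR-101b (0.21 ± 0.17). miR-29c and miR-200b are uncertain, since only 0.240% and 6.02% of their matches were perfect.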

How the data were processed

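Small RNA of 20 to 30 and 70 to 100 nucleotides was cut from a gel and sequenced, per the labels' protocols. Per the file headers, the authors ran mimap version 3d on reads of 37 bases against 707 mouse miRNAs, with hash length 9 and up to 2 mismatches. They deposited raw counts of matches per miRNA, split by 0, 1 and 2 mismatches. How reads were trimmed, which miRBase release was used and how a read with several hits was handled is not given in the sources used here. Names without a star were taken as the 3p arms and miR-148a* as the 5p arm, as miRBase now names them.

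Counts of all miRNAs were filtered with filterByExpr (442 kept), scaled with TMM and compared two-sided with edgeR 4.0.16 (R 4.3.3, quasi-likelihood), with genotype as the only term and Benjamini-Hochberg adjustment over the 442 at 0.05. SEs and 95% intervals come from the F statistic. Arm ratios and perfect-match odds (pseudocount 0.5) were fitted with limma 3.58.1. DESeq2 1.42.0 was an alternative, as were other scalings, filters, mismatch classes, a replicate block and leaving out each library. The tests were checked on simulated data. Genomic context came from GENCODE M21 (GRCm38) and sequences from RefSeq GRCm38.p6, while the files carry no coordinates. miRNAs named outside the family include called members and up to 4 abundant members of the methyltransferase list. They also include the 3 nearest profiles of each guide and the seed neighbours. Members of the marker lists were named singly because of their values. miR-29c and miR-200b were added once their values had been seen. The members and lists were chosen with earlier results of these data known.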

Additional observations from a re-analysis of the deposited data

How the results depend on the processing

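The 4 family members kept a negative log2 fold change and stayed uncalled under all 14 alternatives each. The ranges were -0.54 to -0.308 for miR-152, -0.501 to -0.148 for miR-148a, -0.256 to -0.0833 for miR-148b and -0.616 to -0.0473 for miR-148a*. Upper quartile scaling moved the median of all miRNAs from 0.0056 to -0.102. Counts over all miRNAs moved more: against 59 called (21 higher, 38 lower), there were 93 (39 higher) with no filter and 20 (9 higher, 11 lower) where the mean CPM had to reach 10. Leaving out 1 library gave 49 to 153 called, 17 to 61 higher and 29 to 92 lower, the highest without TghuTNF replicate 1. Without TghuTNF replicate 2, 32 were higher.

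With the replicate number as a block, 87 were called (34 higher), and the family stayed uncalled (miR-152 at -0.374, edgeR adjusted p = 0.0767). Same-numbered libraries did not deviate together (correlation -0.088 over 442 miRNAs), so the numbers were not taken as pairs.

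The arm ratio of miR-148a changed sign without WT replicate 1 (-0.0739) or TghuTNF replicate 2 (-0.119), and lay between -0.119 and 0.139 when 1 library was left out. With perfect matches 1 hairpin was called. For the odds of a perfect match, 2 miRNAs were called with a pseudocount of 5, 2 with the replicate block, and 0 to 2 when 1 library was left out. Without TghuTNF replicate 2 the odds of miR-148a, miR-148b and miR-152 changed sign (0.122, 0.137 and 0.0671), with ranges of -1.15, -1.22 and -1.03 to these values over the left-out libraries, and those of miR-148a* ranged from -0.0813 to 0.11. miR-29a changed sign with perfect and 1-mismatch matches (0.0322) and without WT replicate 1, with -0.153 to 0.0669 over the left-out libraries. miR-126-3p was not called with a mean CPM of at least 10 (edgeR adjusted p = 0.0576) or without 2-mismatch matches (0.0519). Beyond fewer libraries or fewer miRNAs tested, the cause was not tested. A fold change of 2 lies outside the 95% intervals of all 4 members.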
